A study of Mus musculus with 8 samples.

Results

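The steroid hormone metabolising enzymes of mouse liver described here are 10 genes: the 3 short-chain dehydrogenases Hsd3b2, Hsd3b3 and Hsd3b5, the 11-beta-hydroxysteroid dehydrogenase Hsd11b1, the 17-beta-hydroxysteroid dehydrogenases Hsd17b2, Hsd17b6 and Hsd17b11, the 5-alpha-reductase Srd5a1, the 17-alpha-hydroxylase Cyp17a1 and the short-chain dehydrogenase Sdr9c7. They are 10 of the 22052 genes measured, and all 10 passed the filter on low values. The genes were chosen by name with their knockout and control levels in these same livers already known, so their group differences are given as a description and carry no test. The livers came from 8 male C57BL/6 mice aged 8 weeks, all given corn oil into the peritoneum. The 4 controls had the genotype Zfp36l1fl/fl/Zfp36l2fl/fl without a recombinase. The other 4 (double knockout, dKO) carried the same floxed alleles with Alb-Cre, in which the promoter of albumin, a gene of hepatocytes, drives Cre. Which liver cells lost the 2 genes was not measured. The deleted genes encode proteins that recognise AU-rich stretches of mRNAs and speed up their decay. Whole-liver total RNA was sequenced.

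Steroid hormones are made mainly in the adrenal gland and the gonads, and the liver converts, reactivates and clears them. Dehydrogenases of the 3-beta, 11-beta and 17-beta families switch single hydroxyl and keto groups on the steroid and so turn weak hormones into active ones or the reverse. Reductases saturate the steroid ring, and cytochrome P450s, sulfotransferases and glucuronosyltransferases prepare the products for excretion. In mice several of these enzymes differ between male and female liver under the control of pituitary growth hormone, and Hsd3b5 is a classical gene of the male pattern.

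Hsd3b5, Hsd3b2 and Hsd3b3 lie in this order on the minus strand of chromosome 3, with 79.0 kb between the first pair and 17.0 kb between the second. Their start regions are shown because these close relatives had very different levels in dKO livers, and that of Sdr9c7 because it had the next lowest share of its control level. Each window runs from 250 bases before to 50 bases after a RefSeq start site on GRCm38.p6, the assembly that mm10 names, and 8 of the 10 enzymes matched an entry. Windows for Hsd17b2 and Cyp17a1 are not shown. Capitals mark a match, on either strand, to 1 of 4 motifs: TTCNNNGAA (the palindrome bound by STAT5), TGGACTTTG (an HNF4A site), AGAACA (a half-site of steroid receptors) and ATTGAT (the core bound by HNF6). The windows are chr3:98645485-98645784 for Hsd3b5, chr3:98724494-98724793 for Hsd3b2, chr3:98763079-98763378 for the first of 2 start sites of Hsd3b3 and chr10:127898285-127898584 (plus strand) for Sdr9c7.
Hsd3b5: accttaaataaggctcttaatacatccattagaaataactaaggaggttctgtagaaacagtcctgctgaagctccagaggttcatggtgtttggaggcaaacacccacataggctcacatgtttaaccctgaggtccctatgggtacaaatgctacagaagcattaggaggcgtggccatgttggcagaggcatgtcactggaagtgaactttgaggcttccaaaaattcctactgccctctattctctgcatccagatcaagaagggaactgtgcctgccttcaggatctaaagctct
Hsd3b2: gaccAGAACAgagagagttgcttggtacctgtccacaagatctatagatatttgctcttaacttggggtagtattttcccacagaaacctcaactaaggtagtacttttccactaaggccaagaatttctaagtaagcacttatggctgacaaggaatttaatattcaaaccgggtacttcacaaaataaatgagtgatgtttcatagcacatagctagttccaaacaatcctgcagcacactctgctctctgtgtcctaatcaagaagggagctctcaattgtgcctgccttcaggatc
Hsd3b3: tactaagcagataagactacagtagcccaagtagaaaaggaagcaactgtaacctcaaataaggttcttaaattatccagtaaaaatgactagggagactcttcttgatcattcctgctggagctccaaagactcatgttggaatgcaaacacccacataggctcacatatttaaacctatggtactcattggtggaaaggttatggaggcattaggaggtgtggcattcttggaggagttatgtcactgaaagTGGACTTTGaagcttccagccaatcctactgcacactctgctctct
Sdr9c7: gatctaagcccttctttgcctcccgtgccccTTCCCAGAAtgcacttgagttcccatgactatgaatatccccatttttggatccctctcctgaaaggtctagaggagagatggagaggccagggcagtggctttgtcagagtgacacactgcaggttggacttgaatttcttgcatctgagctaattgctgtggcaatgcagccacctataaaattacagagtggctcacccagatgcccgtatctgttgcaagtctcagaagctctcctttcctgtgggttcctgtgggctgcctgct

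Aligned, the Hsd3b5 window had 76.5% of 247 bases in common with that of Hsd3b3 and 73.8% of 233 bases with that of Hsd3b2, against 63.2% between Hsd3b2 and Hsd3b3. The Hsd3b5 window held none of the 4 motifs. The Hsd3b3 window held TGGACTTTG from position 4 after its start site, and the second start site of this gene held it from position 3. The Hsd3b2 window held AGAACA from position -246, and the Sdr9c7 window held TTCCCAGAA, a match to TTCNNNGAA, from position -219. Among all 32851 RefSeq windows of this length, TTCNNNGAA stood in 8.3%, TGGACTTTG in 0.475%, AGAACA in 19.0% and ATTGAT in 7.54%. Of the 8 enzymes with a window, 1 each held the first 3 motifs and 0 held ATTGAT, and none of the matches overlapped another. These matches describe letters only. The GENCODE M21 model of Hsd3b5 ends at position 98630252, below the RefSeq start site, so the 2 annotations place the start of this gene differently.

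The element that the deleted proteins bind was looked for in the annotated 3' untranslated regions. The heptamer TATTTAT stood in those of 2 of the 10 enzymes and of 30.1% of the 15424 tested genes with such a region. Hsd3b2 had it once, from base 1348 of a region of 2251 bases and in 1 of 2 annotated transcripts, and Sdr9c7 had it once, from base 525 of 1799 bases. The 30 bases around each copy are shown with the heptamer in capitals.
Hsd3b2: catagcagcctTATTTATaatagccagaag
Sdr9c7: cctgtttcaagTATTTATtgagcacttact

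Between 15253827 and 19299556 reads per library fell in genes. Levels below are normalised read counts (reads divided by 1 size factor per library), means are given ± SD over 4 livers, and a difference is the dKO mean minus the control mean of log2(value + 0.5), given with its standard error (SE). This scale makes the change of genes with few reads look smaller. Zfp36l1 was 1370.2 ± 194 in controls and 226 ± 27.6 in dKO livers (-2.60, SE 0.11). Zfp36l2 was 1584 ± 393 and 796 ± 94.4 (-0.96, SE 0.17, limma adjusted p = 0.000689). For each gene the exact permutation test, 2-sided, gave p = 0.0286, the smallest value that 70 assignments of the livers allow. Of 20055 genes tested, limma called 38.2% at an adjusted p under 0.05, 21.2% as higher and 17.0% as lower in dKO livers. With quantile normalization the median difference of all genes shifted by -0.11, and the share of higher genes among those called moved from 55.4% to 45.8%. The 10 hepatocyte markers summed to 1356965 to 1470808 in controls and 1468057 to 1548513 in dKO livers, and Alb alone averaged 773160 and 824048. Of these 10 markers 3 rose, such as Trf, and 3 fell, among them Ttr (-0.87) and Serpina1a (-0.81). In whole liver, fewer cells of a type and less RNA per cell cannot be told apart. Markers of other liver cells were higher in dKO livers: 9 of 9 cholangiocyte markers rose (sums 663 to 1565 and 8329 to 12604), as did 10 of 10 neutrophil markers (73.9 to 334 and 724 to 1000.4), 8 of 10 macrophage markers (8060 to 11526 and 17110 to 23393) and 7 of 10 stellate cell markers (4085 to 11736 and 19903 to 26198). Lymphocyte markers (2 of 10 rose, 3 fell) and endothelial markers (2 of 10 rose, 4 fell) went both ways. Control 4 had the highest control sum of the first 4 of these lists. The part of these other cells in the differences below was not tested.

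Of the 10 enzymes, 7 were lower in every dKO liver than in every control, 1 was higher, and 2 had overlapping groups. Over all tested genes the groups did not overlap for 36.4%, with 16.9% lower and 19.4% higher in dKO livers. Nothing is read from the enzymes' count against these shares, since the same contrast was known when they were chosen. Their median difference was -0.75, against 0.03 over all genes tested.

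**Figure D1:**
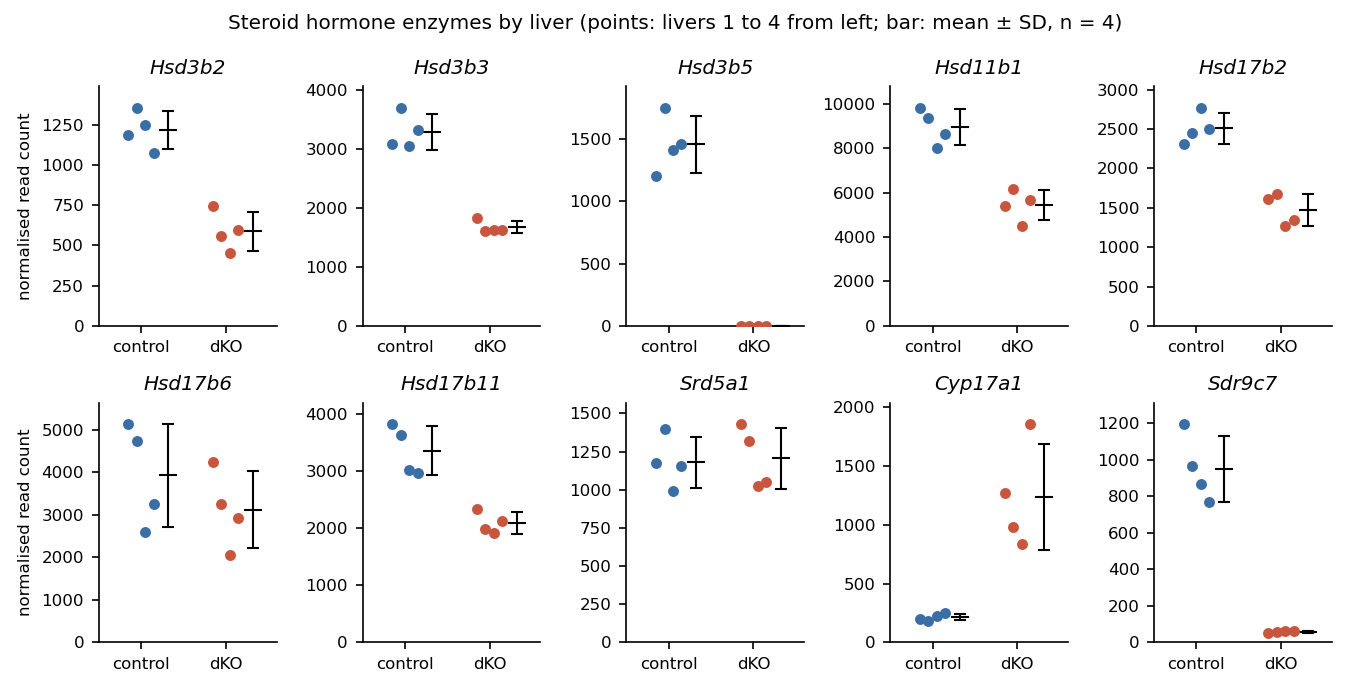
Normalised read counts of the 10 enzymes in each of 4 control and 4 dKO livers, with each axis starting at 0, points for livers 1 to 4 from left and bars for the mean ± SD. Hsd3b5 and Sdr9c7 lie near the bottom of their axes in dKO livers, Cyp17a1 is higher there, and Hsd17b6 and Srd5a1 overlap.

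The 3-beta-hydroxysteroid dehydrogenases differed most among themselves. Hsd3b5 (ENSMUSG00000038092, chromosome 3, 98618634 to 98630252, minus strand) encodes a liver form that mainly reduces 3-ketosteroids. It stood at 1199, 1750, 1415 and 1463 in controls 1 to 4. In dKO livers 1 and 2 it stood at 1.01 and 0.925, which is 1 read each, and it had 0 reads in dKO 3 and dKO 4, which allows levels of up to 2.55 and 2.79 (a floor of 3 counts). The controls held 5498 reads and the dKO livers 2, a ratio of levels of 3150 with an exact 95% counting interval of 872 to 26018. The fitted difference moved from -8.05 with a pseudocount of 5 to -12.1 with 0.1 and is no measure of this gene. All 4 dKO livers lay at or near 0, far below the lowest control.

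Hsd3b3 (ENSMUSG00000062410, chromosome 3, 98741523 to 98763127, minus strand) encodes a form of liver and kidney that oxidises 3-beta-hydroxysteroids. Its controls held 3091, 3705, 3056 and 3320, and its dKO livers 1841, 1618, 1632 and 1637. The dKO mean was 51.1% of the control mean (-0.97, SE 0.08). The groups were far apart, and dKO 2, 3 and 4 lay within a narrow band with dKO 1 above it. Hsd3b2 (ENSMUSG00000063730, chromosome 3, 98709255 to 98724543, minus strand), a close relative with the same kind of activity, stood at 1185, 1354, 1245 and 1072 in controls and at 745, 557, 454 and 593 in dKO livers, 48.4% of the control mean (-1.06, SE 0.13). The groups did not overlap, and dKO 1 was again the highest dKO liver.

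Levels can be compared between genes only per length, here per kb of the union of annotated exons. On that scale Hsd3b5 made up 52.6 ± 2.42% of the summed level of the 3 genes in controls and 0.07% in dKO livers. The share of Hsd3b3 was 28.9 ± 1.42% in controls and 62.6 ± 3.66% in dKO livers, and that of Hsd3b2 was 18.5 ± 1.72% and 37.4 ± 3.62%. The summed level per kb in dKO livers was 23.7% of that in controls. The ratio of Hsd3b2 to Hsd3b3 per kb was 0.640 ± 0.062 in controls and 0.601 ± 0.091 in dKO livers, a difference within 1 SD. The union of exons over all annotated transcripts was 1.549 kb for Hsd3b5, 3.695 kb for Hsd3b2 and 6.396 kb for Hsd3b3. The shares and the sum depend on these lengths, and which transcripts the livers expressed was not measured. Before division by length Hsd3b3 averaged 3293 in controls, above the 1457 of Hsd3b5. Near-identical copies also limit the values of the 3 genes. The coding sequences of Hsd3b2 and Hsd3b3 were identical at 95.1% of aligned bases, and Hsd3b5 was identical to Hsd3b4 (not analysed here) at 95.2% and to Hsd3b3 at 81.3%. Of the stretches of 100 bases in its transcripts, Hsd3b5 shared 7.79% with another of the family genes compared, Hsd3b2 5.55% and Hsd3b3 3.31%, and reads from such stretches cannot be placed.

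**Figure D2:**
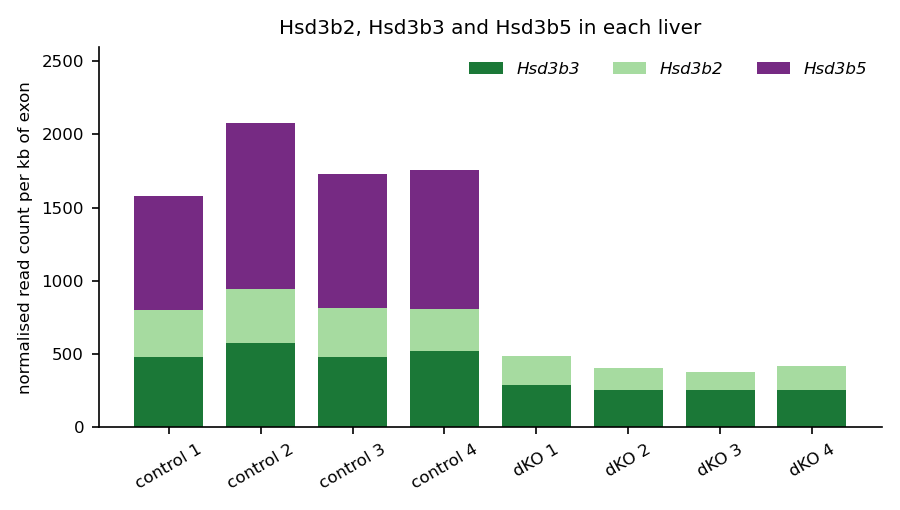
Summed level of Hsd3b3, Hsd3b2 and Hsd3b5 in each liver, in normalised read counts per kb of exon, stacked from 0. The Hsd3b5 part is 49.1% to 54.4% of each control bar and cannot be seen in the dKO bars, whose Hsd3b3 and Hsd3b2 parts are smaller too. The parts depend on the exon lengths used.

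Hsd11b1 and 2 of the 17-beta dehydrogenases were lower by smaller amounts. Hsd11b1 (ENSMUSG00000016194, chromosome 1, 193221634 to 193264075, minus strand) encodes the microsomal enzyme that regenerates active glucocorticoid in hepatocytes. It stood at 9809, 9363, 7981 and 8623 in controls and 5394, 6136, 4512 and 5663 in dKO livers, 60.7% of the control mean (-0.73, SE 0.10). No dKO liver reached the lowest control. With quantile normalization its difference was -0.48.

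Hsd17b2 (ENSMUSG00000031844, chromosome 8, 117701904 to 117759027, plus strand) oxidises and so inactivates testosterone and oestradiol. Its controls held 2307, 2447, 2768 and 2503, and its dKO livers 1611, 1673, 1262 and 1342, 58.7% of the control mean (-0.77, SE 0.10). Hsd17b11 (ENSMUSG00000029311, chromosome 5, 103989762 to 104021919, minus strand) encodes a dehydrogenase found on lipid droplets. It stood at 3814, 3619, 3023 and 2964 in controls and 2339, 1975, 1920 and 2117 in dKO livers, 62.2% of the control mean (-0.68, SE 0.10). For both genes the groups were apart.

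Hsd17b6 (ENSMUSG00000025396, chromosome 10, 127990936 to 128007611, minus strand) encodes an oxidative enzyme that forms dihydrotestosterone from androstanediol. It varied more between livers of 1 group than between groups: controls held 5127, 4737, 2587 and 3258, and dKO livers 4252, 3251, 2067 and 2929. The coefficient of variation was 30.6% in controls and 28.9% in dKO livers, and the difference was -0.32 with an SE of 0.23. Of its stretches of 100 bases, 8.77% were shared with Rdh1, a gene of the same cluster.

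Srd5a1 (ENSMUSG00000021594, chromosome 13, 69573449 to 69611442, minus strand) encodes the main hepatic 5-alpha-reductase of androgens and glucocorticoids. Its 4 control levels were 1178, 1396, 990 and 1154, and the dKO levels 1429, 1318, 1023 and 1050.3. Its difference was 0.03 (SE 0.13), the groups overlapped throughout, and over the alternative settings it ran from -0.06 to 0.11. It was the enzyme of the 10 with the smallest difference in either direction.

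Cyp17a1 (ENSMUSG00000003555, chromosome 19, 46667165 to 46673172, minus strand), the steroid 17-alpha-hydroxylase and 17,20-lyase that leads from progestins to androgens, went the other way. The controls held 203, 186, 224 and 252, and the dKO livers 1267, 984, 838 and 1856. The dKO mean was 5.72-fold that of controls (2.45, SE 0.20). Every dKO liver was above every control, and the spread was wide, with a coefficient of variation of 36.4% in dKO livers against 13.1% in controls.

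Markers of the organs that make steroids were looked at beside Cyp17a1. Of 12 adrenal markers 5 were in the table, summing to 770 to 925 in controls and 852 to 1210.2 in dKO livers, of which Mrap made 733 to 885 and 806 to 1170. Cyp11a1, the side-chain cleavage enzyme that starts steroid synthesis, had 4 reads in the controls and 0 in dKO livers, below a floor of 2.55 to 3.02 normalised counts. Star, which carries cholesterol into mitochondria, stood at 33.2 to 53.4 in controls and 19.4 to 47.5 in dKO livers. Cyp21a1 had 2 and 70 reads and is described below. The 4 gonad markers tested summed to 11.6 to 25.2 and 27.9 to 46.3. Among them Insl3, a peptide of Leydig cells, rose by 1.15 (limma adjusted p = 0.0269), a call lost on leaving out control 1 (0.0732) or 3 (0.0623) or dKO 1 (0.0835) or 4 (0.0563), and with quantile normalization (0.137). Of kidney markers 0 of 4 tested were called and of pancreas markers 0 of 1, at an unadjusted p under 0.05 also 0 and 0 and by edgeR or DESeq2 also 0 and 0.

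Sdr9c7 (ENSMUSG00000040127, chromosome 10, 127898518 to 127911761, plus strand) is a short-chain dehydrogenase best known from the skin barrier. It held 1195, 969, 867 and 770 in controls and 50.3, 56.4, 63.0 and 61.5 in dKO livers. The dKO mean was 6.08% of the control mean (-4.01, SE 0.14), from 251 reads against 3605. The 4 dKO livers lay close together, with a coefficient of variation of 9.94% against 19.2% in controls, and the groups were separated by a wide gap.

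The order of the levels per kb of exon differed between the groups. The order within a group depends on the union of annotated exons, from 1.549 kb for Hsd3b5 to 6.396 kb for Hsd3b3. This union can be longer than the transcript expressed, which was not measured, so other lengths could give another order. The comparison of 1 gene between the groups does not depend on its length. In controls Hsd17b6 (2494 ± 763) and Hsd11b1 (2104 ± 190) were highest, and their ranges overlapped. Hsd17b2 (1303 ± 100.3), Hsd17b11 (1028 ± 130) and Hsd3b5 (940 ± 146) followed, the last pair with overlap. Below them came Hsd3b3 (515 ± 46.7), Srd5a1 (405 ± 57.4), Hsd3b2 (329 ± 31.9) and Sdr9c7 (313 ± 60.1), each overlapping with its neighbour, and Cyp17a1 was lowest (78.1 ± 10.2). In dKO livers the first 4 were the same, at 1984 ± 573, 1276 ± 161, 765 ± 104 and 639 ± 57.3, and each pair of neighbours overlapped except Hsd11b1 and Hsd17b2. Cyp17a1 ranked 5 (446 ± 162) and overlapped with Hsd17b11 above it and Srd5a1 below it (414 ± 68.8). Hsd3b3 (263 ± 16.7), Hsd3b2 (159 ± 32.7), Sdr9c7 (19.0 ± 1.89) and Hsd3b5 (0.312 ± 0.36) closed the order without overlap. Per kb, Cyp17a1 was 0.197 ± 0.0455 of Srd5a1 in controls and 1.11 ± 0.502 in dKO livers.

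Levels of the enzymes were also compared from liver to liver within the groups. Of 45 pairs, 35 (77.8%) had a positive correlation of their log2 levels about the group means over the 8 livers (median Pearson r 0.41), from -0.63 for Hsd17b2 and Sdr9c7 to 0.89 for Hsd17b6 and Hsd17b11. Over all 44883075 pairs of 9475 protein-coding genes with a mean of 100 or more, 50.5% were positive and the median r was 0.01. All pairs share library and depth, and the values are a description. The pairs with Hsd3b5 rest largely on 1 read against 0 reads in dKO livers, so their r carries little weight. In dKO 3 the level was the lowest or joint lowest of the dKO livers for 8 of the 10 enzymes, and in dKO 1 the highest for 6. In control 4, the control in which several markers of other cells were highest, the deviations of the enzymes from their control means ran from -0.28 to 0.23 on the log2 scale, and leaving it out kept the direction of all 10. By the same measure, the genes most like each enzyme among those 9475 were named. Each is the highest of 9475 values over 8 livers, so a high r follows from the search itself and shows no link between the genes. They were Rnf26 for Hsd3b2 (r 0.986), Nt5e for Hsd3b3 (0.962), Crot for Hsd17b11 (0.986), Acot1 for Hsd17b6 (0.985), Smim8 for Hsd17b2 (0.994) and Akr1c13 for Srd5a1 (0.984). For Hsd11b1 it was 1110065P20Rik (0.984), for Cyp17a1 Fam120b (0.957), for Sdr9c7 Tmcc3 (0.987) and for Hsd3b5 Ftl1 (0.987), the last resting on 0 or 1 reads in dKO livers. The next most like genes were Tex261, Phyh, 1600014C10Rik, Sgta, Ndufb8, C1galt1c1, Sec11c, Smarcd2, Gtf2ird1 and Mtx2, in the same order of enzymes.

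The other steroid dehydrogenases and reductases were tested as a list. Of 28 genes 22 were in the table and 21 were tested: 3 rose, 10 fell and 8 did neither, with a median difference of -0.18. The values to set beside the counts and medians of this and the following lists are those of all genes tested, of which 21.2% rose and 17.0% fell, with a median of 0.03. The lists were also chosen with earlier results of these data known, so these comparisons are a description. Lists also share genes, such as Cyp2d9 (hydroxylases and male-biased genes) and Fkbp5 (receptors and carriers, and glucocorticoid targets). Their counts are therefore not independent of each other. Hsd3b7, the bile acid relative of the Hsd3b genes, fell from 13294 ± 487 to 3107 ± 35.1 (-2.10, SE 0.07, limma adjusted p = 1.9e-09). Akr1c6, a 17-beta-hydroxysteroid dehydrogenase of the aldo-keto reductase family, fell from 19812 ± 1519 to 5129 ± 309 (-1.95, SE 0.08). Hsd17b4, the peroxisomal multifunctional protein, fell by 0.90 (SE 0.08), and Akr1c13 fell by 0.91 (SE 0.07). Hsd17b12, which elongates fatty acids, fell by 0.48 (limma adjusted p = 0.000101). The mitochondrial Hsd17b10 fell by 0.34 (limma adjusted p = 0.0145), a call lost with quantile normalization (0.0534).

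The 3 that rose were Hsd17b13, Akr1c18 and Akr1d1. Hsd17b13, a lipid droplet protein of hepatocytes next to Hsd17b11, rose from 5000 ± 410 to 10154 ± 630 (1.02, SE 0.08, limma adjusted p = 1.4e-06). Akr1c18, the 20-alpha-hydroxysteroid dehydrogenase that inactivates progesterone, had 4 reads in the controls and 96 in dKO livers (4.31, SE 0.68). Akr1d1, the 5-beta-reductase, rose with overlap from 4108 ± 614 to 5145 ± 454 (0.33, limma adjusted p = 0.0312), a call lost without control 1 (0.0793), dKO 1 (0.075), dKO 2 (0.0743) or dKO 4 (0.0805). Among the families of the 10 enzymes, Hsd17b7 (adjusted p = 0.249), Hsd17b1 (0.244), Hsd17b14 (0.503), Hsd11b2 (0.45), Srd5a2 (0.401) and Srd5a3 (0.184) did not pass limma's test. Hsd17b1, Hsd17b14 and Hsd11b2 had 20, 5 and 4 reads in the controls and 41, 7 and 7 in dKO livers. Hsd3b1 had 1 and 2 reads and was not tested, and Hsd3b4, Hsd3b6, Hsd3b8, Hsd3b9, Hsd17b3 and Hsd17b8 are not analysed here.

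**Figure D3:**
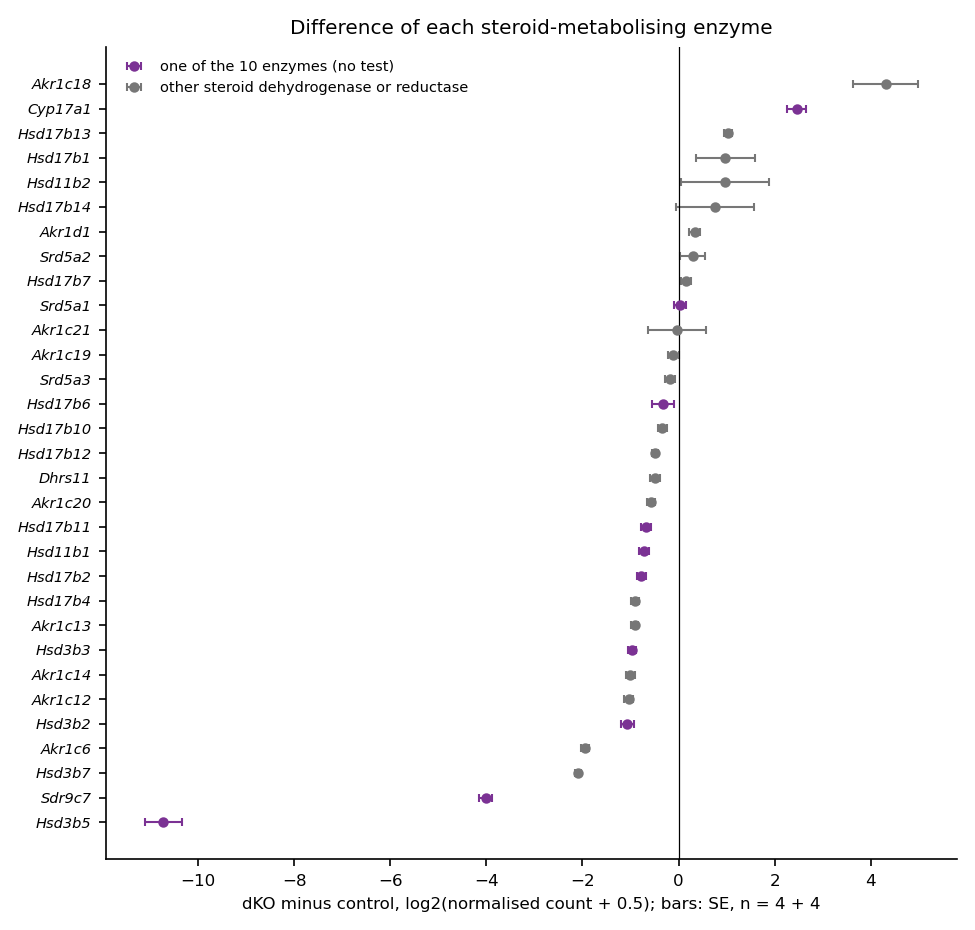
Difference of dKO minus control with its standard error, in log2(normalised read count + 0.5), for the 10 enzymes (purple) and 21 other steroid dehydrogenases and reductases (grey), in order of size. Hsd3b5, whose position depends on the pseudocount, Sdr9c7, Hsd3b7 and Akr1c6 lie lowest, and Akr1c18 and Cyp17a1 highest.

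The cytochrome P450s of steroid synthesis and their electron donors came next. Of 8 tested, 3 rose and 2 fell, with a median of -0.15, or 0.03 with Cyp11a1, which was at 0 in dKO livers and at or under the floor in controls, set to no change. Por, the reductase that passes electrons to Cyp17a1 and the other microsomal P450s, rose from 8010 ± 914 to 13641 ± 1890 (0.76, SE 0.11, limma adjusted p = 0.000203). Cyb5a, the cytochrome b5 that favours the lyase step of Cyp17a1, fell from 13973 ± 585 to 10142 ± 831 (-0.47, SE 0.08, limma adjusted p = 0.000714). H6pd, which supplies Hsd11b1 with NADPH, fell from 12117 ± 1411 to 9227 ± 755 (-0.39, SE 0.10, limma adjusted p = 0.00814), and with quantile normalization this adjusted p was 0.306. Cyp21a1, the adrenal 21-hydroxylase, had 2 reads over the controls and 70 over the dKO livers (ratio of levels 30.5, exact 95% counting interval 8.15 to 257). Its dKO levels were 11.1, 20.3, 11.1 and 22.3, far below those of Cyp17a1. Fdxr, the mitochondrial ferredoxin reductase, rose by 0.35 with overlap (limma adjusted p = 0.0292), a call lost on leaving out control 1 (0.087) or 4 (0.0526) or dKO 1 (0.0843) or 2 (0.0783). With quantile normalization 1 gene of the list fell.

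Steroid hydroxylases and conjugating enzymes went both ways: of 18 tested, 5 rose and 9 fell, with a median of -0.43. Cyp7b1, the oxysterol and steroid 7-alpha-hydroxylase, fell from 1913 ± 566 to 141 ± 29.7 (-3.74, SE 0.19). Cyp2d9, a testosterone 16-alpha-hydroxylase of male liver, fell from 18177 ± 439 to 2553 ± 685 (-2.87, SE 0.16), the sulfotransferase Sult2a8 from 15459 ± 2049 to 232 ± 178 (-6.30, SE 0.33) and the glucuronosyltransferase Ugt2b36 by 1.19 (SE 0.09). Cyp2a4, a testosterone 15-alpha-hydroxylase of female liver, rose from 84.9 ± 35.3 to 7515 ± 3830 (6.44, SE 0.34). Its near-identical copy Cyp2a5 rose by 0.82 (limma adjusted p = 0.00363), and reads of the pair may be shared.

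Of 13 tested receptors and carriers of steroids, 2 rose and 8 fell, with a median of -0.39. Nr1i3, the constitutive androstane receptor, fell by 1.55 (SE 0.21), Serpina6, the plasma carrier of corticosterone, by 1.13 (SE 0.21), Pgrmc2 by 0.60, and the receptor chaperone Fkbp4 by 0.41 (SE 0.07). Nr3c1, the glucocorticoid receptor, fell by 0.39 (SE 0.08, limma adjusted p = 0.00162), and Esr1, the oestrogen receptor alpha, rose by 0.58 (SE 0.12, limma adjusted p = 0.00204).

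Known targets of the glucocorticoid receptor were examined because Hsd11b1 feeds it. Of 10, 6 rose and 2 fell, with a median of 0.43. The kinase Sgk1 rose from 465 ± 69.3 to 1049.6 ± 86.8 (1.18, SE 0.11, limma adjusted p = 4.4e-06), the binding protein Igfbp1 by 1.59 (SE 0.26), the clock gene Per1 by 0.80 (SE 0.16) and the chaperone Fkbp5 by 0.59 (SE 0.13). The gluconeogenic gene Pck1 (0.49, limma adjusted p = 0.0142) and Tat (0.37, limma adjusted p = 0.048) also rose. G6pc, another gluconeogenic gene, stood at -0.46 with overlap (limma adjusted p = 0.221). The call for Tat was lost without any 1 of controls 1, 3 and 4 or dKO 1, 3 and 4 (adjusted p 0.0565 to 0.136). Tsc22d3, the leucine zipper known as GILZ, fell by 0.56 (SE 0.13), and Zbtb16 fell by 0.90 with overlap (limma adjusted p = 0.0333). The call for Zbtb16 was lost with robust variances (0.143) and without control 2 (0.0864), 3 (0.0533) or 4 (0.0793) or dKO 2 (0.104), 3 (0.0681) or 4 (0.0578). Targets of this receptor thus changed in both directions.

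Since Hsd3b5 belongs to the male pattern of mouse liver, sex-biased genes were listed beside it. Of 21 male-biased genes other than the 10 enzymes, 0 rose and 16 fell, with a median of -2.87. Cyp2d9, given above among the hydroxylases, is counted here again. None was higher at an unadjusted p under 0.05 or by edgeR or DESeq2, and 1 was higher with quantile normalization and without dKO 4. Slco1a1, a transporter of steroid conjugates, fell from 5080 ± 453 to 50.03 ± 15.4 (-6.71, SE 0.19, limma adjusted p = 1.0e-09). Cyp4a12a fell from 1439 ± 424 to 3.79 ± 3.01, Cyp4a12b by 5.84 (SE 0.29) and Serpina1e by 5.90 (SE 0.19). Mup1, a major urinary protein, had 2238 reads over the controls and 1 over the dKO livers (ratio of levels 2565, interval 460 to 101339), and near-identical Mup genes can share reads. Like Hsd3b5, Mup1 was at or near 0 in all dKO livers.

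Of 20 female-biased genes tested, 9 rose and 2 fell, with a median of 1.13, or 0.69 with 3 genes that were at 0 in all controls set to their bounds. The repressor Cux2 rose from 20.8 ± 7.44 to 840 ± 411 (5.26, SE 0.32) and the flavin monooxygenase Fmo2 by 2.37 (SE 0.20). Cyp2c40 fell from 240 ± 25.9 to 52.3 ± 13.4 (-2.22, SE 0.19), and Cyp2b10, a target of Nr1i3, fell by 2.61 (SE 0.33). Without dKO 4, and with quantile normalization, 4 fell. In the growth hormone axis 3 of 15 rose and 8 fell, with a median of -0.41. The receptor Ghr fell from 10327 ± 595 to 4509 ± 452 (-1.20, SE 0.09, limma adjusted p = 5.6e-07), its transcription factor Stat5b by 0.70 (SE 0.10), the carrier Igfals by 1.24 (SE 0.18) and Foxa1 by 0.74 (SE 0.10). Socs2, an inhibitor of this signal that STAT5 induces, rose from 149 ± 55.9 to 510 ± 181 (1.78, SE 0.28). With robust variances 1 gene of the axis rose.

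**Figure D4:**
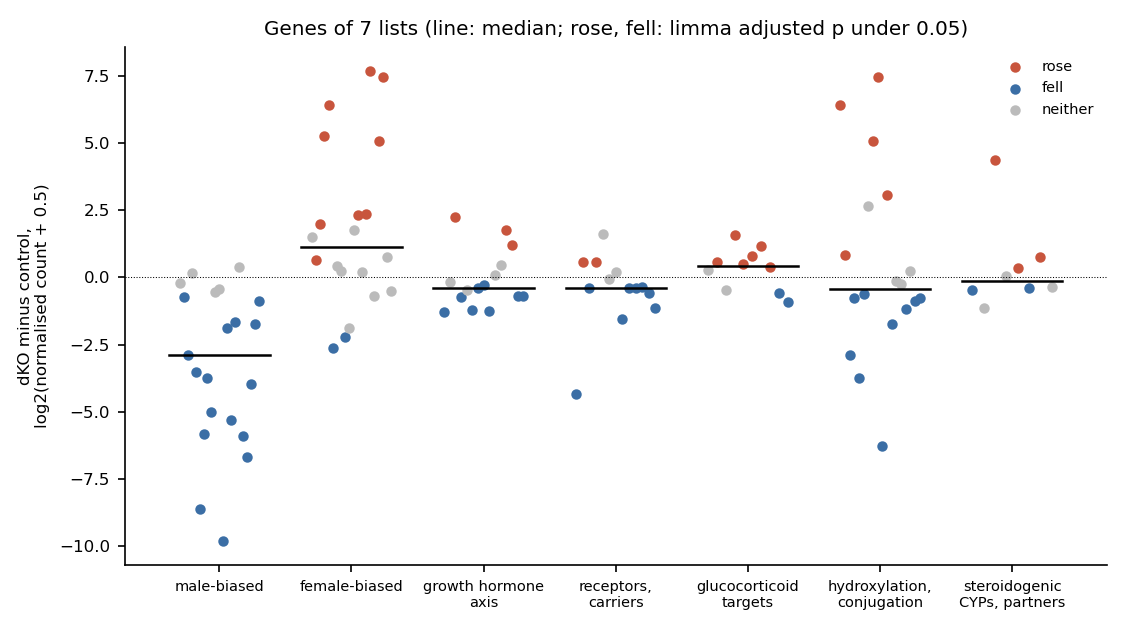
Difference of dKO minus control, in log2(normalised read count + 0.5), for each tested gene of 7 lists, with the list's median as a line, red for genes that rose, blue for genes that fell (limma adjusted p under 0.05) and grey for neither. The male-biased list has its median at -2.87 and 0 red points, and the other lists hold both colours. A gene that stands in more than 1 list is drawn in each.

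Genes around the 10 enzymes were used to see whether whole regions differed. Of 54 tested protein-coding neighbours within 250 kb, 13 rose, 11 fell and 30 did neither, with a median of 0.10. Over all genes 21.2% rose and 17.0% fell. Next to Hsd17b2, Sdr42e1, another short-chain dehydrogenase, fell by 1.22 (SE 0.10). Near Hsd17b11, Sparcl1, a matrix protein, rose by 2.95 (SE 0.23), and Hsd17b13 rose as given above. Of the tested neighbours of Cyp17a1, Trim8 rose by 0.52 and Nt5c2 by 0.55, and the nearest, Wbp1l, stood at -0.12 (limma adjusted p = 0.281).

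Sdr9c7 and Hsd17b6 lie 79.2 kb apart in a cluster of retinol dehydrogenase genes of the same superfamily. Of 6 tested Rdh genes there, 3 fell and 1 rose. Rdh16 fell from 2692 ± 156 to 966 ± 157 (-1.49, SE 0.11, limma adjusted p = 8.4e-07), Rdh7, 9.70 kb from Sdr9c7, by 0.99 (SE 0.08) and Rdh16f2 by 0.76 (SE 0.13). Rdh9 rose by 0.43 (SE 0.13, limma adjusted p = 0.0194), a call lost without control 3 (0.054), dKO 1 (0.0512) or dKO 4 (0.0567). The difference of Sdr9c7, -4.01, was larger than that of any of these 6 genes, and that of Hsd17b6 on its other side was -0.32.

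**Figure D5:**
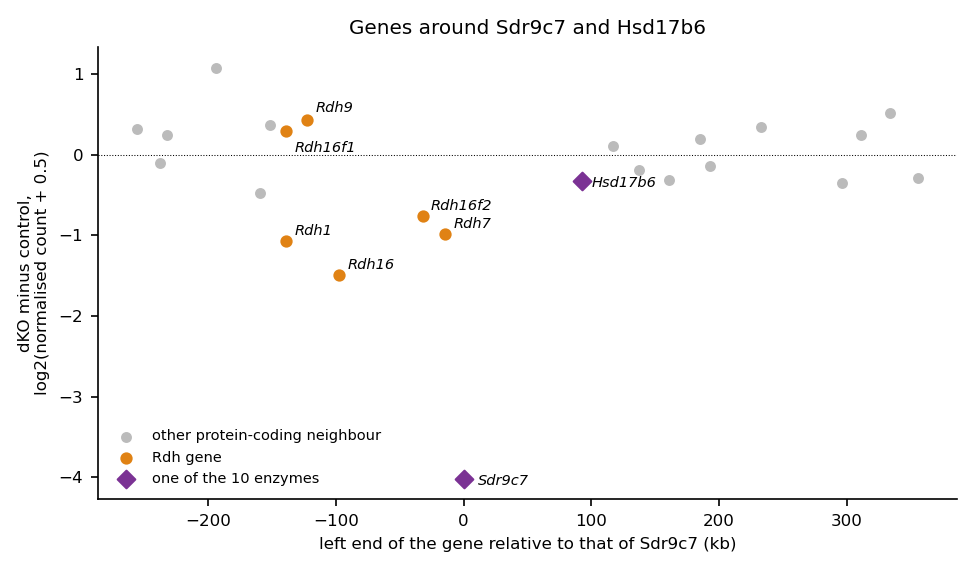
Difference of dKO minus control, in log2(normalised read count + 0.5), for the tested protein-coding genes near Sdr9c7 and Hsd17b6 against the distance in kb of their left ends from that of Sdr9c7. Sdr9c7 lies at -4.01 and the Rdh genes between -1.49 and 0.43.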

How the data were processed

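The submitters' processing notes name HISAT2 2.0.5, fastp, DESeq2, featureCounts 1.5.0-p3 and the mm10 build. Annotation, strand setting and filters: not given in the sources used here. Although the deposited table carries FPKM in its name, each library's values are whole multiples of 1 step (100% within 0.001) that does not depend on gene length. The deposited signal is thus a read count over 1 size factor per library, computed by the authors. The planned log-scale test for FPKM was used for this unit too. Dividing by the steps gave whole reads. No library is a copy of another: chi-square per gene within groups was 13.9 to 29.9. Each mouse is 1 library.

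Genes with a mean of 0.5 or more (20055 of 22052; 21796 identifiers have a symbol) were taken as log2(value + 0.5) and compared by group in R 4.3.3 with limma 3.58.1 (moderated variances with a mean trend). Tests were 2-sided, p-values were adjusted after Benjamini and Hochberg over all tested genes, and the threshold was 0.05. On the whole reads, edgeR 4.0.16 (quasi-likelihood, TMM) called 4018 genes higher and 3512 lower, and DESeq2 1.42.0 4086 and 3399. Other settings were pseudocounts of 0.1 and 5, a mean of 10, no filter, quantile normalization, robust variances, a replicate block and each liver left out. The method was tested on simulated data. Exon lengths and 3' regions came from GENCODE M21 on GRCm38, start windows from RefSeq. Floors (3 counts) and intervals cover counting error only.

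The 10 enzymes, the lists and the alternatives were chosen with earlier results of these data known. Named genes are the 10 enzymes and the deleted genes, from each list up to 5 called genes (smallest adjusted p first), all of the Hsd3b, Hsd11b, Hsd17b and Srd5a families, up to 5 called neighbours, and the 2 genes most like each enzyme. Akr1c18, Akr1d1, Nr3c1, Esr1, Cyp2a5, Cyp2b10, Sult2a1, Sult2a2, Sult2b1, Pck1, Tat, G6pc, Zbtb16, Cyp11a1, Star, Mrap, Insl3, Rdh1, Rdh7, Rdh9, Rdh16f2, Trim8, Nt5c2, Wbp1l, Alb, Trf, Ttr and Serpina1a were named after their values were seen. Some genes that this rule names are not reported here.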

Additional observations from a re-analysis of the deposited data

Results flagged for a closer look

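For 79 of the named genes, 156 groups of 4 livers were examined. Of these groups, 13 held 1 liver far from the other 3 (a gap past Dixon's 95% critical value). For normally distributed values chance gives about 1 in 20. That rate does not hold for low counts: a group with reads in only 1 liver is always flagged, as for Mup1, Cyp21a1 and Hsd11b2 below. Among the 10 enzymes the liver flagged was dKO 1 for Hsd3b3, at 1841 against 1618 to 1637 in the other dKO livers. Livers above the other dKO livers were Fkbp5 in dKO 4 (3110 against 2225 to 2300), Sult2a8 in dKO 3 (498.2 against 123 to 157), Zfp36l1 in dKO 4 (267.2 against 209 to 214) and Mup1 in dKO 3 (0.8516, which is 1 read, against 0). Livers below the other dKO livers were Akr1d1 in dKO 3 (4468 against 5311 to 5401), H6pd in dKO 2 (8096 against 9559 to 9667), Rdh16 in dKO 3 (729.8 against 1033 to 1054) and Tsc22d3 in dKO 1 (1569 against 1826 to 1855). In controls the single livers were Zfp36l2 in control 3 (997.1 against 1722 to 1820), Cyp4a12b in control 2 (919.3 against 459 to 525), Cyp21a1 in control 3 (2.104, against 0) and Hsd11b2 in control 4 (4.575, against 0), the last pair from 2 and 4 reads.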

How the results depend on the processing

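Over all settings run, 9 of the 10 enzymes kept the direction of their difference. Srd5a1, near 0 throughout, changed sign in 3 of the settings that leave out 1 liver (-0.06 to 0.11 over all settings). The difference of Hsd3b3 was -0.85 and that of Hsd11b1 -0.48 with quantile normalization, and that of Hsd3b5 was -12.11, -8.05 and -11.62 with pseudocounts of 0.1 and 5 and with DESeq2. Counts over all genes ran from 3638 to 4296 higher and from 2917 to 4312 lower. With quantile normalization they were 3638 and 4312, the list of steroidogenic cytochromes had 1 lower gene in place of 2, the male-biased list 1 higher gene in place of 0 and the female-biased list 4 lower genes in place of 2. With robust variances the glucocorticoid targets had 1 lower gene in place of 2 and the growth hormone axis 1 higher gene in place of 3. Leaving out 1 liver at a time gave 1 to 2 lower glucocorticoid targets (1 without control 2, 3 or 4 or dKO 2 or 4), 0 to 1 higher male-biased genes and 2 to 4 lower female-biased genes, the upper values without dKO 4. The other 362 counts of called genes under these settings stayed within 1.5 times.

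The labels number the mice 1 to 4 in both groups. Livers with the same number did not deviate together (r from -0.07 to 0.08 over 14132 genes). Livers with different numbers had r from -0.12 to 0.06. With 4 livers per group this cannot exclude a pairing, and the labels state none. With the number as a replicate block 4021 genes were higher and 3112 lower, and Fdxr (adjusted p 0.0569) and Tat (0.0928) were no longer called. Tat also lost its call with pseudocounts of 0.1 (0.0533) and 5 (0.0559) and with no filter (0.052). Depth limits Hsd3b5, Mup1 and Cyp11a1 in dKO livers and Cyp21a1, Sult2a1, Sult2a2 and Sult2b1 in controls. It limits Hsd3b1, Hsd11b2 and Hsd17b14 in both groups.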
